A study of Mus musculus with 12 samples.

Results

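The genes described here drive or accompany cell division: cyclins and their kinases, the enzymes of DNA replication and the proteins of mitosis, 40 genes in all. Each was represented by the probe set that names that gene alone, and by the brightest where a gene had several (Pcna, Top2a and Cdkn1b). Of the 40, 38 were measured, among 19938 genes with such a probe set. Ccnb1 and Cdkn1a had no probe set under their symbol alone and were not analysed here. The signals come from 12 whole-transcript arrays of thymic tissue from untreated pups of the FCG (core genotypes) mouse model, 7 days old and on a C57BL/6J background. In these mice Sry, the testis-determining gene, sits on an autosome instead of the Y chromosome, so that gonads and sex chromosomes are inherited apart. Pups with ovaries were XX (XXF, 3 arrays) or XY (XYF, 3 arrays), and pups with testes were XX (XXM, 4 arrays) or XY (XYM, 2 arrays). The 2 main comparisons were therefore gonadal sex (6 male against 6 female arrays) and sex chromosome complement (5 XY against 7 XX arrays). Thymocytes had been washed out of the tissue in 5 rounds before RNA extraction, and what remained was taken as epithelium and stroma. The labels do not say whether each array held a separate pup or a pool, so every p-value measures the spread between these arrays.

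A dividing cell passes from G1 into DNA synthesis (S phase), then through G2 into mitosis. D-type cyclins with Cdk4 and Cdk6, followed by E-type cyclins with Cdk2, inactivate the retinoblastoma protein and release E2F factors, which switch on the replication genes. Cyclin A and cyclin B with Cdk1 then carry the cell into mitosis, and the anaphase-promoting complex with Cdc20 takes it out again. Many genes of G2 and mitosis are held silent in resting cells through a promoter element, the cell cycle genes homology region (CHR), and switched on through CCAAT boxes and CHR-bound Foxm1 and B-Myb complexes. In the newborn thymus, developing T cells divide rapidly after their first receptor chain is made, and epithelial cells and fibroblasts also divide as the organ grows.

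Promoters are shown first because the mitosis genes shared letters that the choice of members did not use. RefSeq windows of 300 bases (250 before the start of the gene and 50 after it, build GRCm38.p6) were at hand for 33 of the 40 genes, Ccnb1 and Cdkn1a included. In the lines that follow, each written 5′ to 3′ on the strand of the gene, capitals mark the CHR (TTTGAA or TTCGAA), the CCAAT box and the E2F site (TTTGGCGC, TTTCGCGC, TTTCCCGC or TTTGCCGC), each read on both strands. Mki67, Ccnb2 and Cdk1 stand for the mitosis genes, Mcm5 for the replication genes, and Birc5 for a mitosis gene without any of these letters in its window.
Mki67 (chr7:135716330-135716629, minus strand): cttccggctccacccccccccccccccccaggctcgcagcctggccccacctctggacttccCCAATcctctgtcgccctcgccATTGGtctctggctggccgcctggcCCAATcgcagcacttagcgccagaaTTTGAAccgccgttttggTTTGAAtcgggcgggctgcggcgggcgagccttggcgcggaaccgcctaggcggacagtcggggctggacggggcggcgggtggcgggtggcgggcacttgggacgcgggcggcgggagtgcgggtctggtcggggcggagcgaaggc
Ccnb2 (chr9:70421505-70421804, minus strand): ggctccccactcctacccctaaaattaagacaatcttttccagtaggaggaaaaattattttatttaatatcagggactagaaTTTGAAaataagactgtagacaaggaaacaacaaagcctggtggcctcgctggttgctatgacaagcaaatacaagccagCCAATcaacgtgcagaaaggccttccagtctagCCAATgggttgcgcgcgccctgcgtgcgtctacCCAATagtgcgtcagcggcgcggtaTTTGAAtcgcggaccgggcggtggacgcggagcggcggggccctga
Cdk1 (chr10:69352863-69353162, minus strand): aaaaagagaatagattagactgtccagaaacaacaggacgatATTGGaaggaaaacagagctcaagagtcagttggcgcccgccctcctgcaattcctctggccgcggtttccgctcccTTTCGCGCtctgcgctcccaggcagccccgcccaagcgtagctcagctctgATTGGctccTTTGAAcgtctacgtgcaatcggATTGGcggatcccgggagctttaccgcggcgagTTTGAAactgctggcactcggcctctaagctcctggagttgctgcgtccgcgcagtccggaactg
Mcm5 (chr8:75109259-75109558, plus strand): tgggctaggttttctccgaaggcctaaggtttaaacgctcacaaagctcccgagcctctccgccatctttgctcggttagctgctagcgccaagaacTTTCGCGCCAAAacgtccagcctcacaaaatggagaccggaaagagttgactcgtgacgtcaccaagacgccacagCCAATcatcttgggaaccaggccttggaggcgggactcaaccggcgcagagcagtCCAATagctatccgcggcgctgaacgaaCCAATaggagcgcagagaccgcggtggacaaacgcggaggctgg
Birc5 (chr11:117848987-117849286, plus strand): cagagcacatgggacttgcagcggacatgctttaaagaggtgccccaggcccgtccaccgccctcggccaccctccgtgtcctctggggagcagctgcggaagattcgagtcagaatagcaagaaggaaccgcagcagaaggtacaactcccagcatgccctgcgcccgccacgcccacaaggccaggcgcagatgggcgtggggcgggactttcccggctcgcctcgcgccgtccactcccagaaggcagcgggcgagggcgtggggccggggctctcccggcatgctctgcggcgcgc

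The counts that follow are of genes with the letters in any of their windows, since 5 of the 33 genes had several, and the background is counted in the same way. The CHR letters were found in 11 of 14 G2 and mitosis genes, against 21.7% of all 27025 genes with a window and 20.2% of the 17492 protein-coding ones (19.2% of all 32851 single windows). Among replication genes it was 2 of 9, and among D-type cyclins and their kinases 0 of 3. The CCAAT letters, which also occur in many other promoters (41.1% of all genes, 37.4% of single windows), were found in 13 of 14 mitosis genes and 8 of 9 of replication genes. An E2F site was rarer, in 2.6% of all genes, 2.26% of single windows, and in 4 of 9 replication genes. In Mcm5 its letters ran on both strands in an overlap, from 153 bases before the start. In Ccnb2 one CHR began 5 bases past the start, with CCAAT letters beginning 87, 54 and 21 bases before it. The GC box (GGGCGG on either strand, not capitalised above) was present in 28 of 33 of the genes against 38.2% of all genes (49.2% of protein-coding ones, 35.7% of single windows), and TATAAA on either strand in 1 of 33 against 15.7% (13.6% of single windows). A match of letters is a description of the window and not a measured binding site.

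The sex chromosome and Sry signals matched the label on all 12 arrays. Xist was at 8505 to 9884 on XX arrays and at most 79.9 on XY arrays, Eif2s3y at 12061 to 13268 on XY and 37.6 to 55.7 on XX arrays, and Sry at 2524 to 2836 in males and 415.8 to 564.5 in females. The tissue label was checked against markers of cortical thymic epithelium, all 10 of which had a mean above a reference for silent genes, 309.5, the level that 95% of 1035 probe sets of olfactory receptors did not exceed. Of the markers of medullary epithelium, 8 of 9 lay above it (Cldn3 did not), as did 10 of 10 of fibroblasts and 8 of 10 of macrophages, against 0 of 5 of erythroid cells. All 18 measured thymocyte markers also lay above the reference, with means of 599 to 7286. Passing the reference does not by itself show expression, since Sry on the female arrays also lay above it. The first principal component (32.5% of the variance) set the arrays numbered 9 to 12 (scores 8.18 to 28.3) apart from the others (-15.7 to -1.91), and it correlated with the mean of the cell cycle genes (r = -0.79, 12 arrays). Arrays 1 to 4, 5 to 8 and 9 to 12 each held 2 male and 2 female arrays. Results are therefore also given within these sets.

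All 38 genes had a signal above the reference on each of the 12 arrays, with means that ran from 644 to 4987. Their spread was narrow, with a median coefficient of variation of 8.54% (3.81 to 15.8%) and a ratio of the highest to the lowest array of 1.13 to 1.73 (median 1.32). In all per-array values below, the order is arrays 3, 7 and 11 for XXF, 4, 8 and 12 for XYF, 2, 5, 6 and 10 for XXM, and 1 and 9 for XYM. Signals are deposited linear intensities and are not compared between genes, since each probe set has its own brightness.

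**Figure D1:**
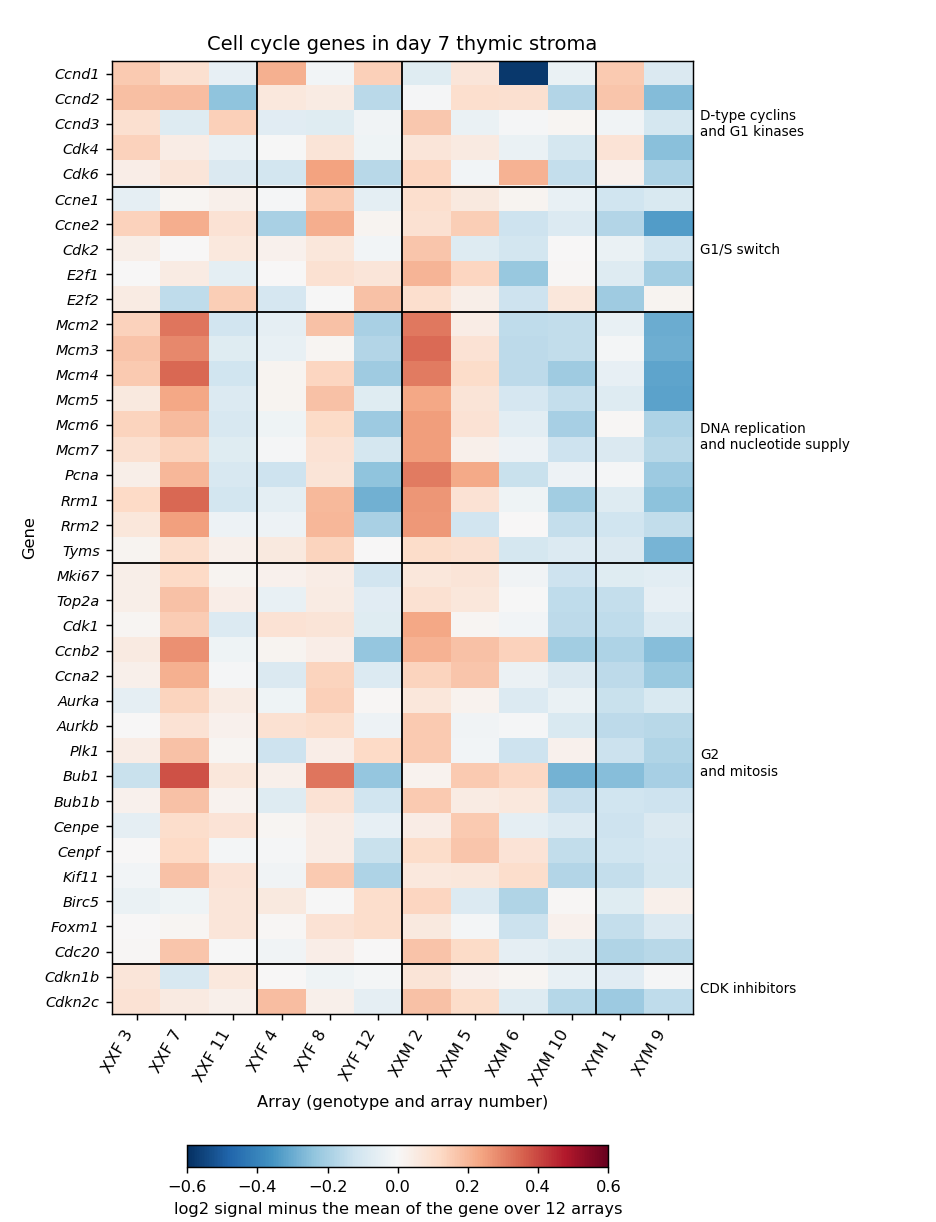
Log2 signal of the 38 measured cell cycle genes (rows, by role) on the 12 arrays (columns, by genotype and array number) as the difference from the mean of each gene over the arrays; red is above and blue below that mean. Replication and mitosis genes were high together on XXM array 2 and XXF array 7 and low on XYM array 9, and the mean over the replication genes had a range of 0.51 over the 12 arrays.

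D-type cyclins and their kinases, which link growth signals to the cycle, were lowest on XYM array 9 in 4 of 5 genes, Ccnd1 being the exception, and otherwise differed in their patterns. Ccnd1, cyclin D1, had signals of 1187, 1139.7 and 1031 in XXF, 1235, 1054 and 1178 in XYF, 1013, 1122, 715 and 1038 in XXM, and 1189 and 1005 in XYM. Its lowest value was on XXM array 6, and males and females overlapped. Ccnd2, the D-type cyclin induced by many growth factors, had 2384, 2393 and 1781 in XXF, 2199.8, 2173 and 1879 in XYF, 2092, 2254, 2249 and 1858 in XXM, and 2362 and 1753 in XYM. It was at 1753 to 1879 on arrays 9 to 12 and at 2092 to 2393 on arrays 1 to 8, without overlap between these sets. How many of all probe sets split in this way was not counted, and the first principal component set the same arrays apart. Ccnd3, the cyclin that T cell precursors need for their expansion, had 3569.8, 3168 and 3686 in XXF, 3184, 3170.4 and 3286 in XYF, 3731, 3241, 3321 and 3369.9 in XXM, and 3286 and 3103 in XYM. Cdk6, a kinase partner of these cyclins, had 2697, 2760.1 and 2475 in XXF, 2433, 3104 and 2338 in XYF, 2870.2, 2594, 3032 and 2383 in XXM, and 2672 and 2311 in XYM. Both overlapped between sexes and between complements. Cdk4, the other partner, ranged from 3040.3 to 3984. The log2 differences were -0.15 (standard error 0.11) by gonadal sex and 0.12 (standard error 0.11) by complement for Ccnd1, the widest interval of the group, and -0.02 (standard error 0.06) by gonadal sex and -0.10 (standard error 0.06) by complement for Ccnd3. By gonadal sex 5 of the 5 genes lay below 0 and by complement 4 of 5, with no unadjusted limma p under 0.05.

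At the G1/S switch, Ccne2 differed most. Ccne2, which encodes cyclin E2, had signals of 705, 744 and 678 in XXF, 558, 743 and 648 in XYF, 681, 708, 588 and 604 in XXM, and 566 and 508 in XYM. Its lowest array was XYM 9, although XYF array 4 and XXM array 6 were also low. The 6 females averaged 679 ± 70.2 (SD) and the 6 males 609 ± 74.4 (SD). Male minus female, this is -0.20 (standard error 0.08, 95% confidence interval -0.39 to -0.02, limma adjusted p = 0.985) on the log2 scale. The 7 XX arrays averaged 673 ± 57.1 (SD) and the 5 XY arrays 604 ± 92.4 (SD). XY minus XX, this is -0.20 (standard error 0.08, 95% confidence interval -0.38 to -0.02, limma adjusted p = 1.00) on the log2 scale. Neither passed after adjustment over all probe sets. Its paralogue Ccne1 had 947, 989 and 1005 in XXF, 979, 1097 and 945 in XYF, 1055, 1023, 995 and 952 in XXM, and 906 and 922 in XYM. Both XYM arrays lay below the other 10 for Ccne1, while its log2 difference was -0.05 by sex and -0.05 by complement. E2f1, a transcription factor of S phase entry, had 907, 938 and 869.6 in XXF, 909, 966 and 954 in XYF, 1044, 991, 775 and 912 in XXM, and 859.9 and 788 in XYM. It was lowest on XXM array 6 and XYM array 9 and highest on XXM array 2, so that the male arrays spanned the female ones. Cdk2, the kinase of cyclin E, ranged from 1338 to 1630.3, and E2f2, a relative of E2f1, from 1383 to 1814.

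**Figure D2:**
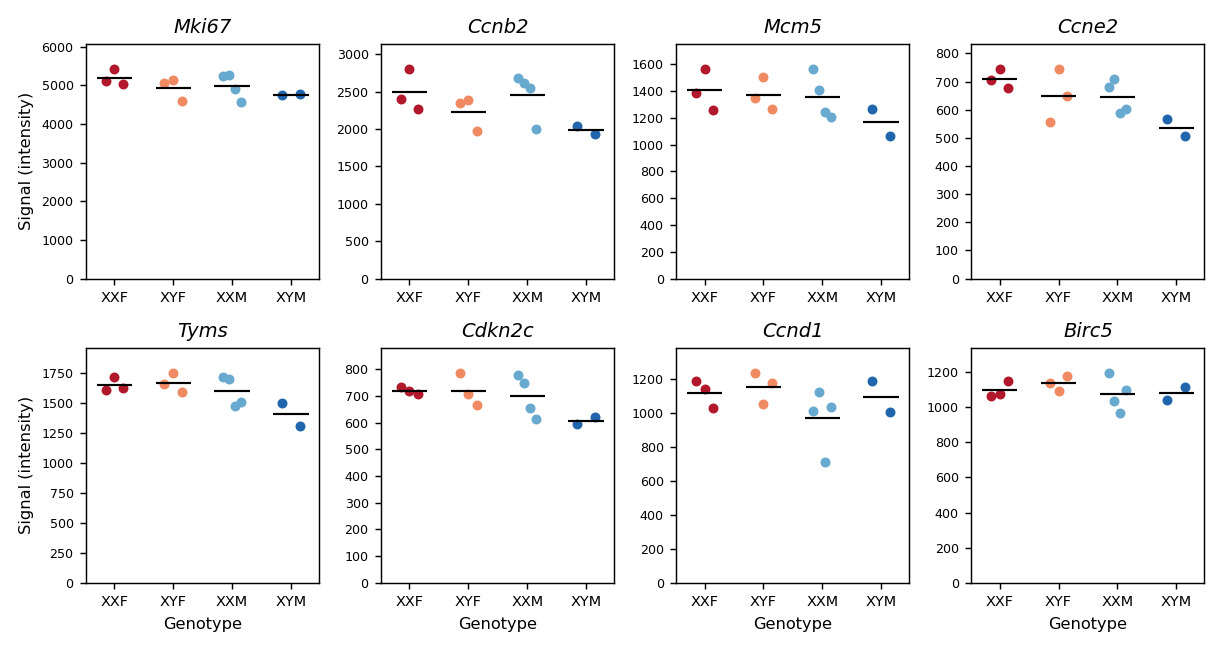
Signal (deposited linear intensity, axis from 0) of 8 cell cycle genes on each array, by genotype; points are single arrays and lines the genotype means. The XYM points of Cdkn2c (593 and 621) overlap the lowest XXM value of 614, and for Ccnd1 the lowest point of all, 715, is an XXM array.

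DNA replication and nucleotide supply held the genes that varied most alike. Mcm2 and Mcm5 are subunits of the replicative helicase, which unwinds DNA ahead of the fork. Mcm2 had signals of 1583, 1797 and 1325 in XXF, 1382, 1623 and 1257 in XYF, 1787, 1481, 1294 and 1297 in XXM, and 1393 and 1169.9 in XYM. Mcm5 had 1389.8, 1565 and 1260.5 in XXF, 1348, 1506 and 1266 in XYF, 1564, 1408, 1244 and 1206 in XXM, and 1265 and 1068 in XYM. Both were highest on XXF array 7 and XXM array 2 and lowest on XYM array 9, and males and females overlapped. Mcm3, another subunit, had 1109, 1201 and 935 in XXF, 954, 991 and 871 in XYF, 1246, 1043, 881 and 889 in XXM, and 976 and 803 in XYM. Pcna, the sliding clamp of the polymerases, had 3571, 4006 and 3263 in XXF, 3200.0, 3673 and 2944 in XYF, 4327, 4074, 3181 and 3411 in XXM, and 3466 and 2993 in XYM. On XXM array 2 both reached their highest value. Rrm2, the small subunit of ribonucleotide reductase, which makes deoxynucleotides, had 2131, 2415 and 1995 in XXF, 1994, 2338 and 1777 in XYF, 2435, 1879.8, 2039 and 1843 in XXM, and 1875 and 1835 in XYM. Among the males, XXM array 2 stood apart for Rrm2. Tyms, thymidylate synthase, had 1616, 1718 and 1628 in XXF, 1663, 1752 and 1599 in XYF, 1723, 1706, 1482 and 1509.8 in XXM, and 1502 and 1315 in XYM. All 6 female values of Tyms lay at or above 1599, and of the male values only those of XXM arrays 2 and 5 did. The 6 females averaged 1662 ± 60.9 (SD) for Tyms and the 6 males 1539.5 ± 153 (SD), -0.15 (standard error 0.07, 95% confidence interval -0.29 to -0.003, limma adjusted p = 0.985) on the log2 scale. Mcm4, Mcm6, Mcm7 and Rrm1 had ratios of the highest to the lowest array between 1.33 and 1.58. By complement 10 of 10 genes lay below 0, from -0.19 for Mcm3 to -0.09 for Tyms, with no unadjusted limma p under 0.05, and by gonadal sex 9 of 10 did, Pcna being the exception at 0.01 (standard error 0.10).

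G2 and mitosis genes held the member that differed most by complement. Ccnb2, cyclin B2, had signals of 2403, 2800.3 and 2271 in XXF, 2342, 2382 and 1969.8 in XYF, 2676, 2611, 2544 and 2000.2 in XXM, and 2034 and 1938 in XYM. Its XY values reached at most 2382, a level passed by 5 of the 7 XX arrays, and the groups overlapped. The mean of the 7 XX arrays was 2472 ± 271 (SD) and that of the 5 XY arrays 2133 ± 212 (SD), -0.23 (standard error 0.09, 95% confidence interval -0.43 to -0.02, limma adjusted p = 1.00) on the log2 scale, which did not pass after adjustment. Ccna2, cyclin A2, had 2452, 2784 and 2385 in XXF, 2261, 2635 and 2268 in XYF, 2634, 2697, 2342 and 2260.4 in XXM, and 2154 and 2056 in XYM. Both XYM arrays lay below all others, and the log2 difference by complement was -0.16 (standard error 0.07). Mki67, which encodes the proliferation antigen Ki67, had 5109, 5416 and 5041 in XXF, 5069, 5142 and 4602 in XYF, 5225, 5251, 4913 and 4569 in XXM, and 4740.1 and 4765 in XYM. Top2a, the topoisomerase that untangles replicated chromosomes, had 3529, 3890.3 and 3546 in XXF, 3348, 3564 and 3292 in XYF, 3674, 3609, 3446 and 3105 in XXM, and 3119 and 3333 in XYM. Cdk1, the mitotic kinase, had 1651, 1821 and 1549.7 in XXF, 1743, 1729 and 1560.4 in XYF, 1923, 1652, 1621 and 1469 in XXM, and 1475 and 1548 in XYM. All 3 overlapped between sexes and complements, and the lowest array of each was XXM 10. For Mki67 the log2 difference was -0.06 (standard error 0.06) by gonadal sex and -0.07 (standard error 0.06) by complement.

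Aurkb, the kinase of the chromosomal passenger complex, had signals of 2087, 2214 and 2122 in XXF, 2219, 2244 and 2039.5 in XYF, 2326, 2052, 2072 and 1952 in XXM, and 1869.5 and 1854 in XYM. Of the mitosis genes it had the lowest p by sex, at a log2 difference of -0.12 (standard error 0.06, limma adjusted p = 0.985). Plk1, a kinase of mitotic entry and spindle assembly, had 1669, 1832 and 1632 in XXF, 1488, 1664 and 1758 in XYF, 1809, 1604, 1488 and 1651 in XXM, and 1479.7 and 1432 in XYM. For both genes the 2 XYM arrays were the lowest of the 12. Foxm1, the transcription factor of many mitosis genes, had 1441, 1453 and 1511 in XXF, 1447, 1528 and 1548 in XYF, 1499, 1426, 1317 and 1466 in XXM, and 1305 and 1355 in XYM. Birc5, survivin, which anchors Aurkb at centromeres, had 1065, 1074 and 1149 in XXF, 1139, 1092 and 1177 in XYF, 1194, 1035, 967 and 1098 in XXM, and 1040.0 and 1118 in XYM. For Foxm1 and Birc5 the highest values lay on XYF array 12 and XXM array 2, not on XXF array 7. Bub1 and Bub1b (checkpoint kinases), Cenpe and Cenpf (kinetochore proteins), Kif11 (the motor that separates spindle poles), Aurka (a centrosome kinase) and Cdc20 had ratios of the highest to the lowest array of 1.21 to 1.59, Bub1 the widest with 1143 on XXM array 10 and 1816 on XXF array 7. By gonadal sex 16 of 16 genes lay below 0 and by complement 15 of 16, the exception being Birc5 at 0.03 (standard error 0.07).

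The inhibitors differed in spread. Cdkn2c, p18, which blocks Cdk4 and Cdk6, had signals of 734, 716 and 707 in XXF, 784, 707 and 667 in XYF, 779, 746, 655 and 614 in XXM, and 593 and 621 in XYM. Its lowest values lay on XYM arrays 1 and 9 and XXM array 10, and it correlated with the mean of the other members at r = 0.77 over the 12 arrays. The score of both inhibitors correlated less with that of the D-type cyclins and kinases (r = 0.40, 0.13 within the array sets). The log2 difference of Cdkn2c was -0.14 (standard error 0.07) by gonadal sex and -0.10 (standard error 0.07) by complement. Cdkn1b, p27, a brake on cyclin E with Cdk2, had 2077, 1847 and 2067 in XXF, 1982, 1941 and 1959.6 in XYF, 2086, 2015, 1993 and 1918 in XXM, and 1885 and 1965 in XYM. On the probe set used, it had the narrowest spread of the 38 genes, a ratio of 1.13 between the highest and the lowest array. The mean of its 2 probe sets gave log2 differences of 0.08 by sex and 0.09 by complement, turned in sign from those of the brighter one.

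By gonadal sex, 0 of the 38 genes passed an adjusted p under 0.05 in limma, against 0.00281% of all 35556 probe sets, and the lowest adjusted p was 0.985. At an unadjusted p under 0.05 it was 2, Ccne2 and Tyms, both lower in males, against 3.03% of all probe sets, and the methods' two-factor model without moderation gave 0 and 4 (2.95% of all probe sets in that model). The signs ran mostly one way: 37 of 38 log2 differences lay below 0 (male minus female), against 48.7% of all probe sets and 57.4% of the 24434 with a mean signal of at least 200, with a median of -0.08 and a range of -0.20 to 0.01, beside a median over all probe sets of 0.00. Since the genes moved together over the arrays, these signs are not separate observations. In no gene did every male array lie below every female array, a pattern of 0.0394% of all probe sets. As a ratio of males to females, the 95% intervals of all 38 stayed within 0.731 and 1.18. Over 22 alternative fits, 12 of them with 1 array left out, 0 genes were called, and the lowest adjusted p of any was 0.403, with the array sets as a block.

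By complement, 0 of 38 passed in limma, against 0.0366% of all probe sets, and the lowest adjusted p was 1.00. At an unadjusted p under 0.05 it was again 2, Ccnb2 and Ccne2, both lower with XY, against 2.55% of all probe sets, and 0 and 4 with the methods' two-factor model (3.01% of all probe sets in that model). Of the log2 differences, 36 of 38 lay below 0 (XY minus XX), against 47.4% of all probe sets and 51.9% of those with a mean of at least 200, with a median of -0.10 and a range of -0.23 to 0.12, beside 0.01 over all probe sets. Ccnd1 and Birc5 were the 2 above 0. In no gene did every XY array lie below every XX array (0.0534% of all probe sets), and the ratios of XY to XX were confined by their intervals to between 0.741 and 1.29. With Cd3e as a covariate, 16 of 38 lay below 0 by complement and the median was 0.02, while by gonadal sex 33 of 38 lay below 0 with a median of -0.05. The shares of all probe sets in that fit are not given here, so these counts describe the members only.

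**Figure D3:**
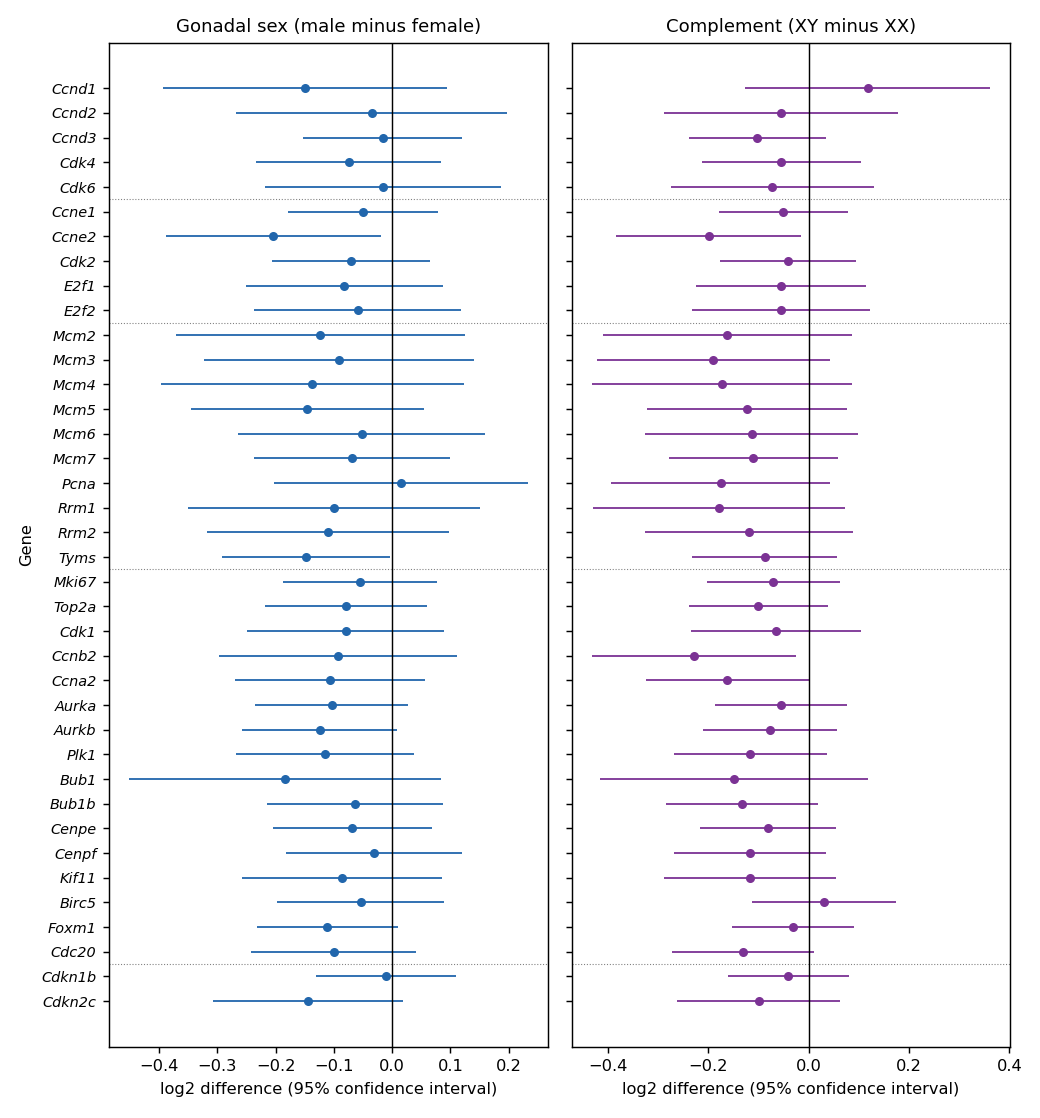
Log2 differences of the 38 genes by gonadal sex (male minus female, left) and by complement (XY minus XX, right) from limma; points are estimates and bars 95% confidence intervals, and dotted lines part the role groups. Most points lie left of 0 and nearly all bars cross it, the exceptions being Ccne2 and Tyms by sex and Ccnb2 and Ccne2 by complement.

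The 4 single differences between genotypes, which share groups with each other, gave medians of -0.04 for XXM minus XXF (31 of 38 below 0, against 46% of all probe sets), -0.12 for XYM minus XYF (38 of 38, against 49.4%), -0.06 for XYF minus XXF (29 of 38, against 48.3%) and -0.15 for XYM minus XXM (36 of 38, against 48.7%). Among probe sets with a mean of at least 200, the shares below 0 were 49.7%, 58%, 47.9% and 55% in the same order. The test of whether the sex difference differed between complements (the interaction) called 0 genes in limma, as it did over all probe sets (0%), with 0 at an unadjusted p under 0.05 against 1.54% of all. Across the 4 genotypes limma's F test also called 0 (0.0281% of all probe sets), and 0 at an unadjusted p, against 1.99%. The 2 XYM arrays stood at the low end: 23 of 38 genes had their lowest value on one of them, 16 of these on XYM array 9, and in 7 genes (Ccne1, Ccna2, Aurka, Aurkb, Plk1, Cenpe and Cdc20) both lay below the other 10 arrays, against 1.67% of all probe sets. The highest value lay on XXF array 7 in 14 genes and on XXM array 2 in 13. How many of all probe sets had their lowest or highest value on these arrays was not counted. These places of the lowest and highest values therefore describe the members only. XYM had 2 arrays, and array 9 belonged to the set that stood apart on the first principal component.

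A score for each array, the mean over the 38 genes of the log2 signal less the mean of the gene, summed up these levels. Its values were 0.05, 0.14 and -0.01 in XXF, -0.01, 0.09 and -0.07 in XYF, 0.15, 0.06, -0.05 and -0.10 in XXM, and -0.09 and -0.16 in XYM. The range of 0.31 between XXM array 2 and XYM array 9 equals a ratio of 1.24, and XX and XY arrays, like males and females, overlapped. The 6 female arrays had a mean score of 0.03 ± 0.08 (SD) and the 6 male arrays one of -0.03 ± 0.12. For the 7 XX arrays it was 0.03 ± 0.09 and for the 5 XY arrays -0.05 ± 0.10. Within the sets of arrays 1 to 4, 5 to 8 and 9 to 12, males less females came to 0.01, -0.11 and -0.09, and XY less XX to -0.15, 0.04 and -0.06, where the second set held 1 XY array. The direction was thus not the same in every set for either factor. Of the role groups, replication genes varied most, with a range of 0.51, or a ratio of 1.43 between arrays.

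The genes of S phase and mitosis tended to be high on the same arrays and low on the same arrays. With the score taken over the other members, 28 of 38 genes had a Pearson r of at least 0.7 over the 12 arrays (median 0.81). Of all probe sets 6.84% did (median -0.14), and of the 24434 with a mean of at least 200 it was 2345 (median 0.03). All 10 replication genes were among the 28 (0.83 to 0.97, Mcm5 highest), and 13 of 16 mitosis genes (median 0.82). The score of the replication genes and that of the mitosis genes correlated with r = 0.86 (Spearman's rho = 0.83), 0.83 over arrays 1 to 8 and 0.89 within the sets. Arrays that were high for one phase thus tended to be high for the other, but not in every case. XYM array 1 had the lowest mitosis score (-0.14) with a replication score of -0.055, and XXF array 11 had 0.025 and -0.076. The 10 genes with an r below 0.7 were E2f2 (r = -0.02), Birc5 (0.08), Ccnd1 (0.10), Cdkn1b (0.20), Ccnd3 (0.27), Foxm1 (0.44), Ccnd2 (0.50), Cdk6 (0.59), Cdk2 (0.63) and Plk1 (0.68). Promoter letters varied among these genes, and no window was at hand for Ccnd1, Ccnd2 and Foxm1. Birc5 held none of the CHR, CCAAT and E2F letters, and Cdkn1b and Ccnd3 held CCAAT. E2f2 held all 3 kinds over its windows, but not in a single window.

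**Figure D4:**
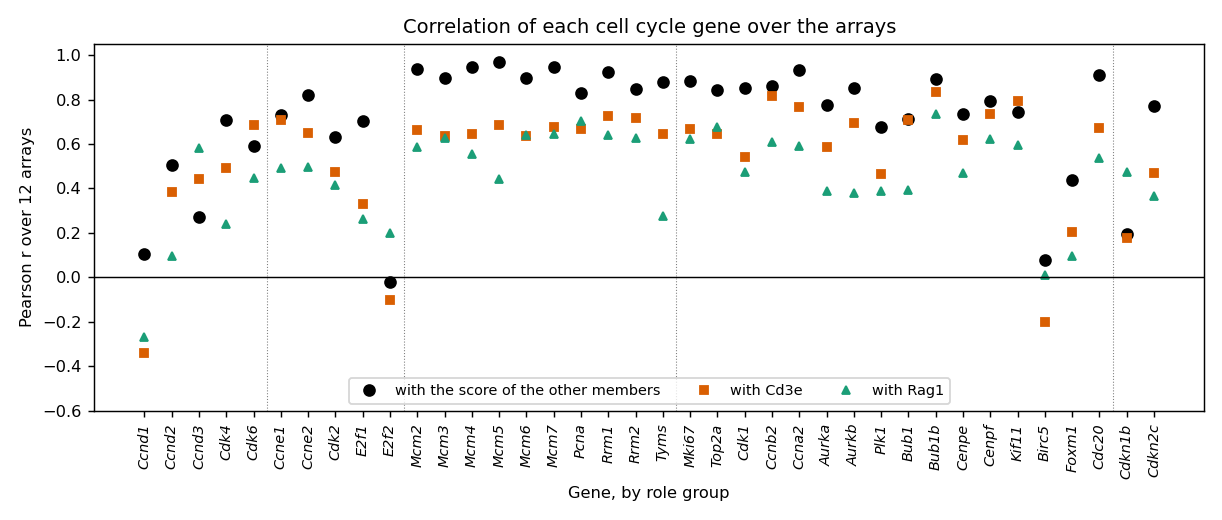
Pearson r over the 12 arrays of each of the 38 genes with the score of the other members (circles), with Cd3e (squares) and with Rag1 (triangles), by role group between dotted lines. Replication genes sit at 0.83 to 0.97 with the score and 0.63 to 0.73 with Cd3e, whereas Ccnd1, E2f2 and Birc5 lie near or below 0.

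A wider list of cell cycle genes outside the 40, such as origin licensing factors, kinetochore proteins and spindle motors, followed the members in part. Of its 132 measured genes, 70 had an r of at least 0.7 with the members' score (median 0.71), the origin factor Gins2 (0.97) highest, while G1 regulators did so in 3 of 19. Pttg1, securin, which keeps the enzyme that parts sister chromatids inactive until anaphase, ran the other way with r = -0.86 (picked out after its value was seen). In limma 0 of the 132 were called by sex or by complement, with 4 at an unadjusted p under 0.05 in each, a share of 3.03% beside the 3.03% and 2.55% of all probe sets. Of the log2 differences 118 and 116 lay below 0 (48.7% and 47.4% of all probe sets), with medians of -0.08 and -0.06. As the shares at an unadjusted p, unlike those of the signs, are near the background, the genes with the lowest p are given as a description. By sex these were Sgo1, the protector of centromeric cohesion (log2 difference -0.17), Cdca3, a trigger of mitotic entry (-0.17), and Tk1, thymidine kinase (-0.15). Sgo1 had 972, 1079 and 1113 in XXF, 951, 1041 and 1005 in XYF, 942, 1078, 922 and 864 in XXM, and 851 and 904 in XYM. By complement they were Ube2c, the ubiquitin-conjugating enzyme of the anaphase-promoting complex (-0.19), Kif20a, a motor of cytokinesis (-0.23), and Asf1b, a histone chaperone of replicating cells (-0.18). Ube2c had 1813, 2169.9 and 1838 in XXF, 1786, 1872 and 1744 in XYF, 2014, 1989, 1718 and 1781 in XXM, and 1544 and 1549 in XYM. Both XYM arrays were its lowest, and XX and XY arrays overlapped, at 1718 to 2169.9 and 1544 to 1872. In 12 of the 132 both XYM arrays lay below the other 10, beside the 1.67% of all probe sets.

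The relation of the cell cycle genes to 2 thymocyte genes was then examined. Cd3e, a chain of the T cell receptor complex, had signals of 4146, 4485 and 4433 in XXF, 4094, 4331 and 3871 in XYF, 4484, 4274, 4429 and 4181 in XXM, and 4046 and 3734 in XYM. Rag1, which recombines the receptor genes, had 5495, 5470.1 and 5565 in XXF, 4826, 5299.8 and 4785 in XYF, 5908, 5458, 5271 and 5150.2 in XXM, and 5057 and 5288 in XYM. Both were somewhat lower on XY than on XX arrays, with log2 differences of -0.12 (standard error 0.06) and -0.11 (standard error 0.06), neither past the threshold, and by gonadal sex they were -0.04 and 0.02. The members' score correlated with Cd3e at r = 0.74 (Spearman's rho = 0.76, 12 arrays) and with Rag1 at r = 0.61 (rho = 0.69), both axes coming from the same 12 hybridisations. Without the 2 arrays farthest from the median, XYM 9 and XYF 12 for Cd3e and XXM 2 and XYF 12 for Rag1, r was 0.58 and 0.42. Over arrays 1 to 8 it was 0.65 and 0.73, and within the 3 sets 0.63 and 0.60. After the deposited values were quantile normalized again it was 0.50 and 0.30.

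**Figure D5:**
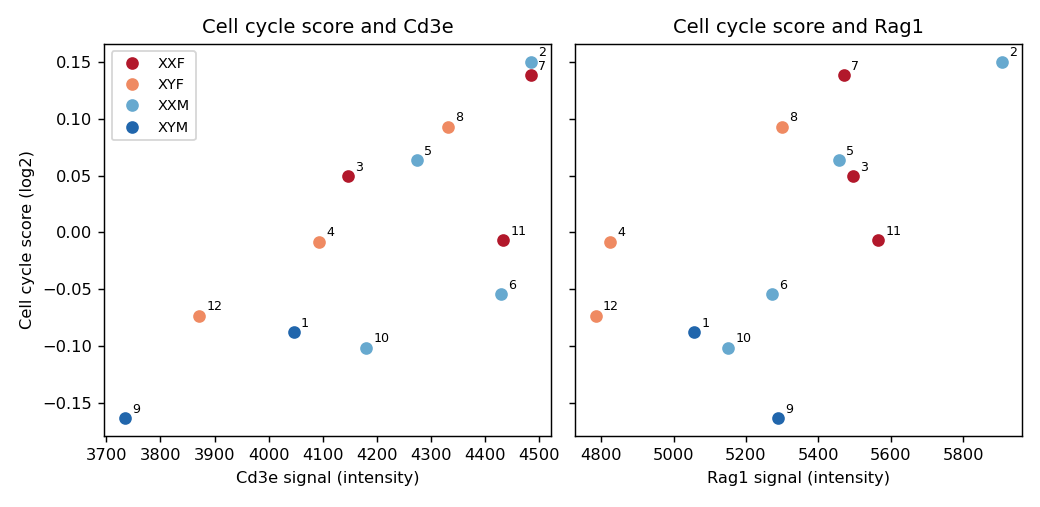
Score of the 38 cell cycle genes (mean log2 deviation from the mean of each gene) against the signal (linear intensity) of Cd3e (left) and Rag1 (right); each point is 1 of the 12 arrays, coloured by genotype and marked with its array number. XYM array 9 has the lowest score (-0.16) with a Cd3e signal of 3734, and XXM array 2 the highest (0.15) with 4484.

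Gene by gene, a slope on log2 Cd3e was fitted in limma over all probe sets. It called 0 members at an adjusted p under 0.05, as it called 0% of all 35555 probe sets, and the lowest adjusted p was 0.190, for Ccnb2. At an unadjusted p under 0.05 it was 22 of 38, all with positive slopes, against 13.4% of all probe sets in either direction and 9.24% in the positive one. Among probe sets with a mean of at least 200 these shares were 17.6% and 12.9%. The 22 comprised 10 of 10 replication genes and 9 of 16 mitosis genes but 1 of 5 D-type cyclins and kinases (Cdk6), 2 of 5 genes of the G1/S switch (Ccne1 and Ccne2) and 0 of 2 inhibitors. The highest r with Cd3e were those of Bub1b (0.83) and Ccnb2 (0.82). With Rag1, 0 were called (0% of all probe sets) and 14 had an unadjusted p under 0.05, all positive, against 3.03% of all probe sets in either direction and 1.48% in the positive one. Among probe sets with a mean of at least 200 the shares for Rag1 were 3.69% and 1.94%. With the 4 genotypes as covariates the counts at an unadjusted p were 6 for Cd3e (against 7.73% of all probe sets) and 5 for Rag1 (2.71%). With the array sets as a block they were 9 (7.09%) and 13 (4.4%), and after a second quantile normalization 7 (7.48%) and 0 (4.15%). Without XYM array 9 the count for Cd3e was 11 (9.02%) and without XXM array 2 it was 14 (11.2%). For Rag1 it was 2 without XXM array 2 (2.65%) and 6 without XYF array 12 (2.06%).

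Not every thymocyte marker followed the cell cycle genes. The score of all 18 correlated with that of the members at r = 0.48 (rho = 0.57), with Ptcra, the pre-T cell receptor chain of dividing precursors, at 0.77, Cd3g at 0.69 and Cd3d at 0.64, and Cd8a at -0.22, Lat at -0.39 and Zap70 at -0.10. The summed signal of the 18, Cd3e and Rag1 included, was 59401 to 65096 on XX arrays and 56993 to 58843 on XY arrays. These ranges lay close but did not overlap. How many sums of other probe sets part in this way was not counted, and the brightest markers weigh most in a sum. By complement, 18 of 18 had log2 differences below 0 (median -0.10), the direction of most cell cycle genes. Between sexes the sums overlapped, at 57807 to 65096 in females and 56993 to 63414 in males. Markers of cortical epithelium gave a score with r = 0.40, medullary epithelium 0.10, fibroblasts 0.03, endothelium -0.24, macrophages -0.17 and erythroid cells -0.61, the last on mean signals below the reference. Single epithelial markers varied, from -0.12 to 0.70 (Krt8) in the cortical list and from -0.52 to 0.67 (Krt17) in the medullary one. Cortical epithelial markers lay below 0 by sex in 10 of 10 (median -0.09) and above 0 by complement in 9 of 10. By sex 48.7% of all probe sets lay below 0, and 57.4% of those with a mean of at least 200. By complement these shares were the 47.4% and 51.9% above. The part of thymocyte content in the differences by complement was not tested. The fit with Cd3e as a covariate cannot separate it from complement, because Cd3e itself was somewhat lower on XY arrays. In whole tissue, fewer dividing cells and less of these RNAs per cell cannot be told apart, nor can the cells that carried them.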

How the data were processed

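The 12 arrays (Affymetrix MoGene 1.0 ST) were grouped by the genotype in the labels. The deposited values were linear intensity per probe set, which the authors had background corrected, summarised and normalized. Their methods name RMA with quantile normalization, whereas the submitters' processing notes name PLIER and Affymetrix Expression Console 1.1, and which of these made the table is not settled. Array medians of 327.5 to 345.5 were left as deposited, and the number of arrays limits the precision. No column belonged to no sample (0).

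Intensities were taken to log2 with no offset. Of 35556 probe sets, 21789 carried a single symbol in the platform annotation, 1621 more than one, and 12146 none. limma 3.58.1 (R 4.3.3; lmFit, eBayes) was fitted on all probe sets with a mean per genotype, since the methods use a two-factor model, and contrasts gave gonadal sex, complement, their interaction, an F test and 4 single differences. Slopes on log2 Cd3e and log2 Rag1 were fitted separately. P-values were two-sided, and the Benjamini-Hochberg adjustment, with a threshold of 0.05, covered every probe set. The score was the mean log2 deviation of the 38 members. Arrays 1 to 4, 5 to 8 and 9 to 12 follow the numbers in the labels, and nothing says they were batches.

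The members, gene lists and markers were chosen with earlier results of these data known. Genes given with every array were a set of cell cycle genes named by symbol, any member past the threshold, the member with the lowest p for sex and for complement in each role group and, in the wider list, those past the threshold and the 3 lowest p for each factor, of which Sgo1 and Ube2c are given by array. The fit was tested on simulated data. Alternatives changed the normalization, offset, dim filter, model, moderation, weights, gene summary, block, Cd3e covariate, genotype covariates and the arrays included. Promoter windows came from RefSeq (GRCm38.p6). Python 3.11.15 with numpy 2.4.6, pandas 2.3.3, scipy 1.17.1 and matplotlib 3.10.9 made the summaries and plots.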

Additional observations from a re-analysis of the deposited data

Results flagged for a closer look

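In 2 of 76 sets of 6 arrays (each gene in gonadal males and in gonadal females), 1 array lay apart from the other 5 by more than 0.625 of the whole range, and chance alone gives about 1 in 20 such sets. Rrm2, the small subunit of ribonucleotide reductase, reached 2435 in males on XXM array 2 against 1835 to 2039 on the others, a gap of 0.660 of the range. Cdc20, the activator of the anaphase-promoting complex, reached 1027 in females on XXF array 7 against 899.5 to 941.1, a gap of 0.674. These were the arrays with the highest scores over all members, and the cause was not tested.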

How the results depend on the processing

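No member was called under the alternatives run for each test, 22 for sex and for complement, 21 for the interaction, 20 for the F test and 18 for each slope. In all, 30 of 48 differences of named genes (by sex or by complement) kept their sign. The median by gonadal sex lay between -0.113 and -0.061 with single arrays left out and that by complement between -0.126 and -0.074. The correlation of the score with Cd3e lay between 0.627 and 0.835 and that with Rag1 between 0.461 and 0.706. With Cd3e as a covariate the median by complement turned to 0.0150, as did the differences of Mki67 (0.0152), Cdk1 (0.0458), Ccne1 (0.0497), Ccnd2 (0.0945), Cdk6 (0.1595), Mcm2 (0.0678), Mcm5 (0.0679), Pcna (0.0050), Rrm2 (0.1066), Aurkb (0.0287), Tyms (0.0234) and Birc5 (-0.0021), and by sex those of Ccnd2 (0.0122) and Cdk6 (0.0583). A second quantile normalization moved the correlation with Cd3e to 0.5044 and with Rag1 to 0.3043, and turned the difference by sex of Ccnd3 (0.0089), Cdk6 (0.0097) and Cdkn1b (0.0135). The mean of the probe sets of a gene turned Cdkn1b by sex (0.0806) and by complement (0.0906), and array weights turned Pcna by sex (-0.0022). The cause was not tested. With single arrays left out, differences by sex ran from -0.143 to 0.0722 for Ccnd2, -0.0489 to 0.0057 for Ccnd3, -0.068 to 0.0478 for Cdk6, -0.0381 to 0.0679 for Pcna and -0.0384 to 0.0042 for Cdkn1b, and by complement from -0.1623 to 0.0529 for Ccnd2, which turned without XYM array 9. The 2 genes at an unadjusted p under 0.05 by sex became 0 without any 1 of XXF 3, XXF 7, XYF 8, XXM 6, XXM 10 or XYM 9, and the 2 by complement became 0 without any 1 of XXF 7, XYF 12, XXM 2, XXM 5 or XYM 9. Where array 1 or 9 was left out, the lone XYM array was assumed to vary like the other groups. No paired analysis was possible because the number of each array occurs once and links no samples across groups.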
